A study of Arabidopsis thaliana with 3 samples.

Results

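The DELLA genes of Arabidopsis thaliana are RGL1, RGL2, RGL3, GAI and RGA, 5 of the 27444 protein-coding genes on the nuclear chromosomes. They encode nuclear repressors of growth. In the gibberellin pathway, the hormone binds a GID1 receptor, the receptor then binds a DELLA protein, and an F-box protein of the SCF ubiquitin ligase marks the DELLA protein for destruction, which releases growth. GAI and RGA are known mainly for restraining stem and leaf growth, RGL2 for holding back seed germination, RGL1 for roles in germination and in floral development, and RGL3 for joining gibberellin to jasmonate responses. All 5 belong to the GRAS family of transcriptional regulators, which also holds the root patterning factors SCARECROW and SHORT-ROOT. The 5 genes were chosen by family after the wide region at RGL1 had been seen in these data. The values at RGL1 are therefore a description, and no test was made on them.

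LDL1, a plant relative of the animal histone demethylase LSD1, was mapped by chromatin immunoprecipitation and sequencing (ChIP-seq). Whole Col-0 plants 14 days old, grown in long days, carried the LDL1pro::LDL1:GFP transgene, a GFP-tagged LDL1 driven by the LDL1 promoter (GFP is green fluorescent protein). Chromatin was precipitated with an anti-GFP antibody for 2 biological replicates, each from pooled ChIP DNA, and 1 input library came from the same line. All 3 libraries carry the transgene. The labels do not say whether the endogenous LDL1 is intact, and an untagged control is not analysed here. The ChIP libraries are represented by 1 set of 5928 regions (start and end only, median width 300 bp) that is not separated by replicate. No value below therefore has a replicate error, the depth is unknown, and width is the only measure a region carries. Positions are on TAIR10, and gene bodies run from the start to the end of the gene in a RefSeq table for TAIR10.1. That table gives no strand, so "left" means towards lower coordinates.

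Regions lay on 3 of the 5 DELLA genes, and the extent differed widely between them. RGL1 was covered over 81.6% of its body, RGA over 28.6% and RGL3 over 10.7%, whereas no region touched RGL2 or GAI. Of the 2605 bp of DELLA gene body under a region, 65.2% was at RGL1. Over all nuclear protein-coding genes, 7.68% had a region on the body. Among genes of 2000 to 2500 bp, the length range that holds all 5, the share was 8.12%. The count of 3 of 5 thus stood above the background, but the family was picked because of RGL1, and nothing is read from it.

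**Figure D1:**
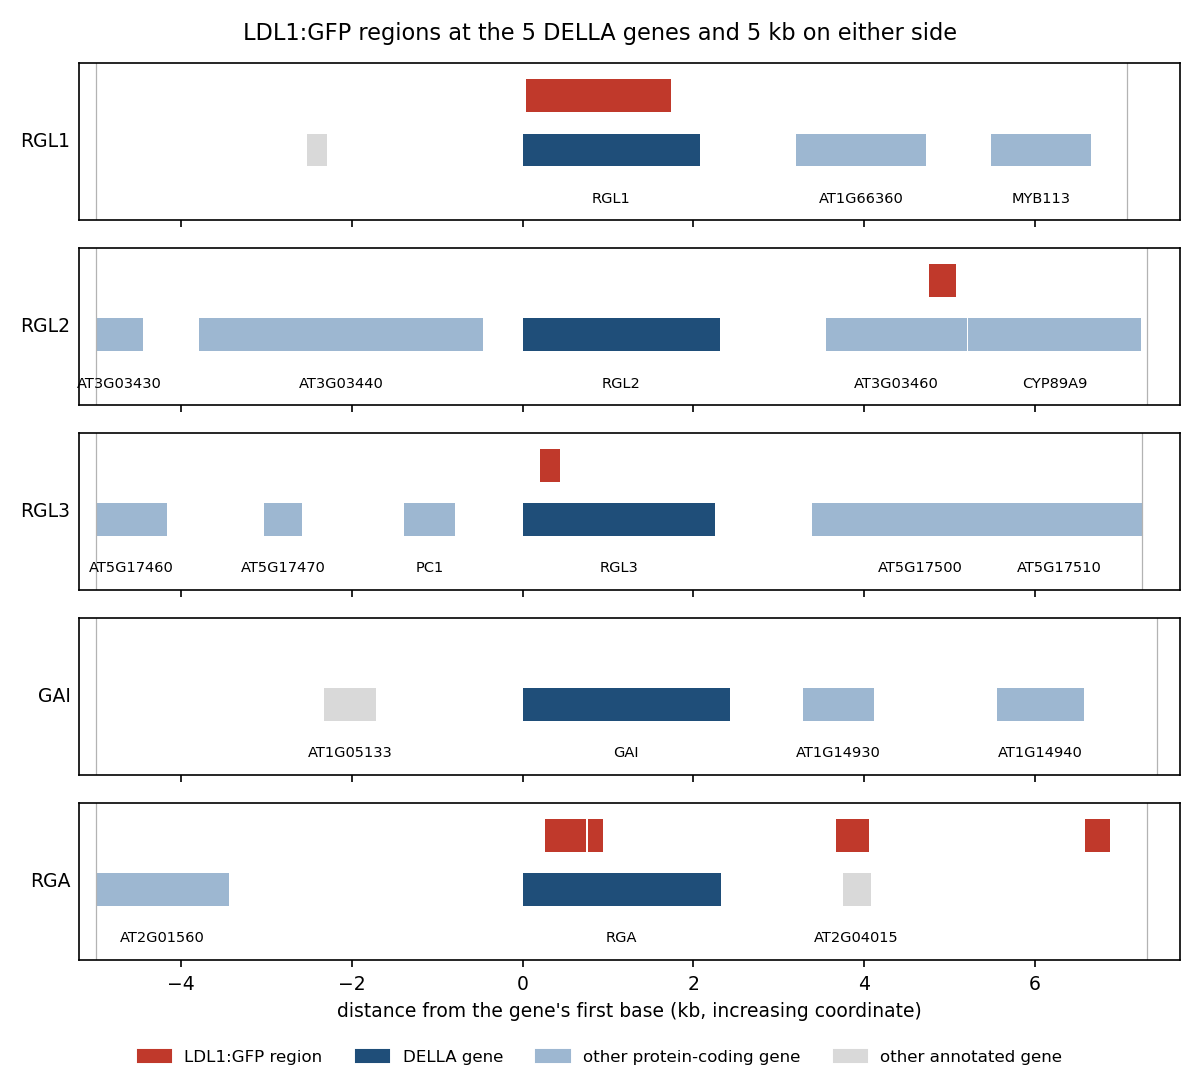
LDL1:GFP regions (red) and annotated genes (blue and grey) at each DELLA gene and 5 kb on either side, drawn to scale from the gene's first base in kb. A single wide region fills most of RGL1, 2 short regions lie on RGA, 1 lies on RGL3, and RGL2 and GAI have none.

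RGL1 (AT1G66350, chr1:24748105-24750186, 2082 bp) held a single region of 1698 bp at chr1:24748144-24749841. It lay wholly inside the gene, beginning 39 bp after the left end of the gene and ending 345 bp before the right end. It was 5.66 times as wide as the median region, 3.51 times as wide as the widest region on RGA and 7.02 times as wide as the region on RGL3. No other region lay within 5 kb of RGL1. The next regions were 99838 bp away on the left, on AT1G66180, and 134677 bp away on the right, on the DNA ligase gene LIG6. The region at RGL1 was thus the only one in a stretch of 237 kb.

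RGA (AT2G01570, listed in the gene table as RGA1, chr2:255247-257568, 2322 bp) held 2 regions in its left part. The first, of 484 bp (chr2:255511-255994), began 264 bp inside the gene. The second, of 181 bp (chr2:256008-256188), followed after a gap of 13 bp and ended 1380 bp before the right end of the gene. The second was among the narrowest of the whole set, with 98.2% of regions wider. A further 2 regions lay within 5 kb on the right: 1 of 381 bp, 1354 bp from RGA, which overlapped the long non-coding RNA gene AT2G04015, and 1 of 290 bp, 4273 bp away, which overlapped no annotated gene. On the left the nearest was 28464 bp away.

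RGL3 (AT5G17490, chr5:5763989-5766246, 2258 bp) held 1 region of 242 bp (chr5:5764187-5764428), which began 198 bp inside the left end of the gene. It was narrower than 74.5% of all regions. As at RGL1, there was no second region within 5 kb, and the next ones lay 73834 bp to the left, on the autophagy gene APG5, and 63023 bp to the right. That last one lay on TFL2, also known as LHP1, which encodes a Polycomb-associated chromatin protein.

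RGL2 (AT3G03450, chr3:819337-821652, 2316 bp) had no region on its body or within 1 kb. Its nearest region, of 328 bp, lay 2441 bp to the right and inside the neighbouring gene AT3G03460, of which it covered 19.9%. On the left the next region was 7757 bp away. GAI (AT1G14920, chr1:5148982-5151415, 2434 bp) was the only member with no region within 5 kb. Its nearest region was 245 bp wide and lay 14600 bp to the left, between genes. Of all nuclear protein-coding genes, 53.2% lay still farther from a region. With 1 kb on either side included, 3 of the 5 genes had a region, against 12.2% of all protein-coding genes. With 5 kb on either side the count was 4 of 5, against 25.4%.

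**Figure D2:**
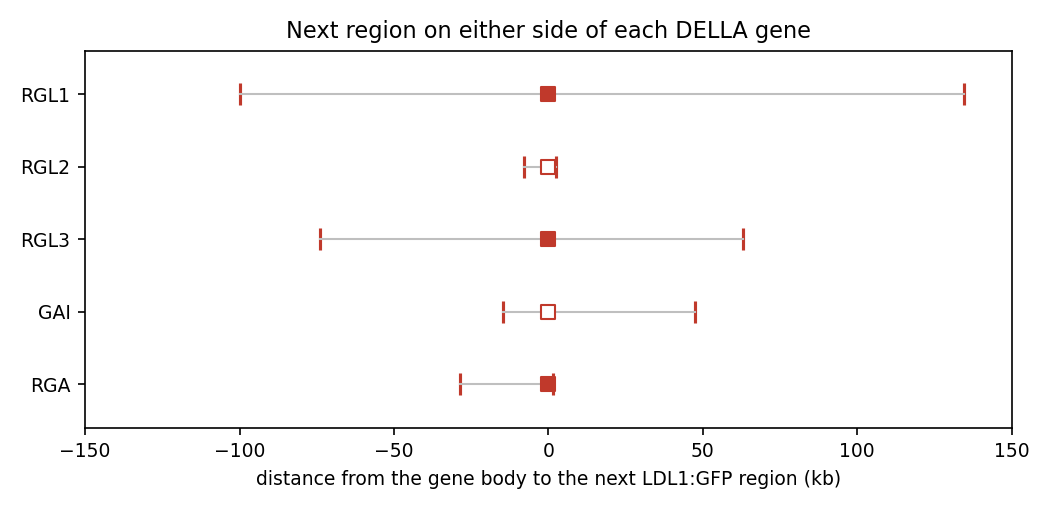
Distance in kb from each DELLA gene body to the next LDL1:GFP region on the left (negative) and right (positive), marked by red ticks. Filled squares stand for genes with a region on the body and open squares for genes without. RGL1 and RGL3 stand alone over 237 and 139 kb, while RGL2 and RGA have another region 2441 and 1354 bp away.

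The surroundings of the genes differ. RGA and RGL2 lie 0.256 and 0.82 Mb from a chromosome end, and protein-coding genes in the outer 1 Mb of the chromosomes had a region on the body in 21.8% of cases. The share was 29.1% in the outer 1 Mb at the start of chromosome 2, where RGA lies, and 17.8% in that of chromosome 3, where RGL2 lies. Among the 68 genes with a region in the RGA stretch, 39.7% held 2 or more. Their median share of the body covered was 24.9%, beside 28.6% at RGA. Coverage within this stretch was uneven, with 100% at AT2G01050, 0.069 Mb from the end. The nearest 2 genes with a region to the left of RGA, AT2G01480 and AT2G01490, were covered over 8.75 and 10.6%. To the right, AT2G01580 and AT2G01600 were covered over 29.8 and 1.79%. RGL1, RGL3 and GAI lie 5.68, 5.77 and 5.15 Mb from an end. Gene-poor bins are 1 Mb bins with fewer than 150 protein-coding genes, and the shorter last bins of chromosomes 1 and 3 also fell under that count. Leaving out these bins and the outer 1 Mb, the share of genes with a region was 5.18%. In this inner part of the arms, genes with a region had a median of 8.85% of the body covered and a widest region of 270 bp in the median. RGL3, at 10.7% and 242 bp, was near those medians, and RGL1, at 81.6% and 1698 bp, was far above them.

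The region at RGL1 was isolated as well as wide. The nearest other region was 99877 bp from its edge. The 1615 regions of the inner arms had a median distance of 13004 bp to their nearest neighbour, and 4.33% of them stood at least as far from it as the region at RGL1 did. For the region on RGL3 the distance was 64841 bp, which 9.85% of inner regions reached or exceeded.

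By width, the region at RGL1 ranked 174th of the 5928. Gene-poor bins held most of those above it: outside these bins it ranked 18th of 2402, and in the inner arms 6th of 1615. Of the 5 wider regions in the inner arms, 4 overlapped the pseudogenes AT5G39155 and AT5G39185, close together on chromosome 5, and no protein-coding gene. The other one, of 3099 bp, lay on LDL1 itself. Over all nuclear protein-coding genes, 0.346% carried a region at least as wide as that at RGL1, and 0.459% were covered over at least as large a share. In the inner arms 2 of 22974 protein-coding genes (0.00871%) had a region at least that wide, namely RGL1 and LDL1. Since the cut is the width at RGL1 itself, RGL1 is counted by construction, and these shares are a description only.

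The shape of the coverage differed between these 2 genes on the right, while at both the region began inside the left end of the gene. At LDL1 the region covered 96.7% of the gene and ran 452 bp past its right end, and 2 further regions, of 972 and 208 bp, lay within 5 kb on that side. At RGL1 the region also stopped inside the right end of the gene and had no companion. At LDL1, reads of the transgene and of the endogenous copy cannot be told apart, since the transgene holds LDL1 sequence. Whether reads at RGL1 came from any place other than the endogenous gene was not tested.

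**Figure D3:**
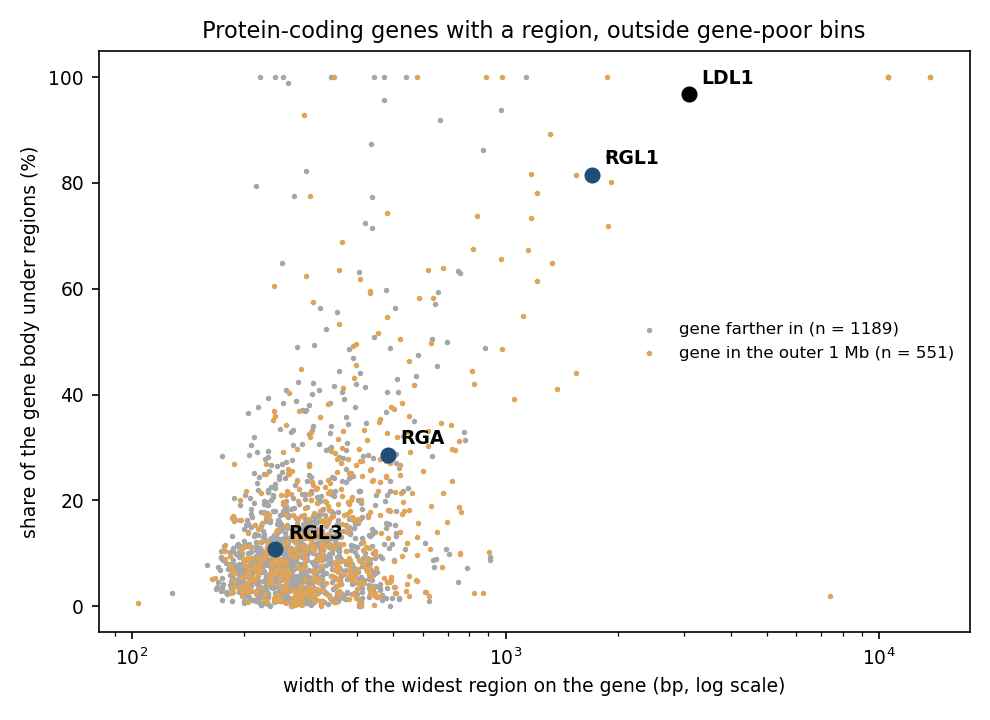
Share of the gene body under LDL1:GFP regions (%) against the width of the widest region on the gene (bp, log scale) for protein-coding genes with a region, outside gene-poor bins. Each point is a gene, in orange where it lies in the outer 1 Mb of a chromosome. The short last bins of chromosomes 1 and 3 counted as gene-poor and are not shown. RGL3 (10.7%, 242 bp) sits in the bulk of the points, RGA (28.6%, 484 bp) above it, and RGL1 (81.6%, 1698 bp) beside a few outer genes and LDL1 (96.7%, 3099 bp).

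The protein-coding genes most like RGL1 were taken as those outside gene-poor bins with at least 80% of the body covered, ordered by how close the width of their widest region came to 1698 bp. The first 5 were UNE11 (1540 bp, 81.5% covered), AT2G01050 (1869 bp, 100%), AT2G01070 (1885 bp, 85.1%), the fatty acid hydroxylase gene CYP86A2 (1911 bp, 80.3%) and AT4G00040 (1316 bp, 89.3%). All 5 lay within 0.162 Mb of the start of chromosome 2 or 4, the arms that carry the nucleolus organisers, whereas RGL1 lies 5.68 Mb from an end. The short last bins of chromosomes 1 and 3 counted as gene-poor, so genes at those ends could not appear here or in the counts that follow. In all, 33 genes outside gene-poor bins reached 80%, 16 in the outer 1 Mb and 17 farther in. Of the 14 with a region of at least 1 kb, 11 were in the outer 1 Mb and 3 farther in. Of the 6 among these with a body of at least 2 kb, RGL1 and LDL1 were the 2 farther in. The cuts at 1 kb of region and 2 kb of body were not planned. They were set with the values at RGL1 known, and RGL1 passes both (1698 and 2082 bp). Just under the first cut, farther in, was AT5G39180 (93.8% covered, 970 bp). A single region lying wholly inside the gene and covering at least 80% of it was found at 4 genes. At RGL1 and CYP86A2 it was 1 kb or wider. The others, both farther in, were AT5G39150 (86.3% covered, 869 bp) and AT5G42635 (87.4%, 436 bp). Their bodies of 1007 and 499 bp leave little or no room for a region of 1 kb.

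Of 17 other annotated genes that reach into the 5 kb on either side of a member, 2 had a region on the body: AT3G03460 beside RGL2 and the non-coding AT2G04015 beside RGA. Among the 14 protein-coding genes of these, AT3G03460 was the 1 with a region (7.14%), near the 7.68% of all protein-coding genes. RGL1 is followed after 1123 bp by AT1G66360 and then by MYB113, a MYB gene of anthocyanin synthesis. Neither held a region, and on the left the nearest protein-coding gene, AT1G66345, lay 8751 bp away without a region. RGL3 lies between PC1, a pollen calcium-binding protein gene 786 bp to the left, and AT5G17500, 1132 bp to the right, both without a region. GAI lies between AT1G14910 and AT1G14930, RGL2 has AT3G03440 460 bp to its left, and RGA has AT2G01560 3440 bp to its left, all without regions. On its right the nearest protein-coding gene to RGA is AT2G01580, 7453 bp away, of which a region of its own covered 29.8%. None of these neighbours shared a region with a DELLA gene.

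Input coverage differed little between the members. Its intervals were taken to mark where reads fell, as their making is not described, and they carry no depth. They covered 100% of the body of RGL1, 99.96% of RGL3, 99.8% of GAI, 99.5% of RGL2 and 99.3% of RGA, against a median of 99.6% over nuclear protein-coding genes. Whole coverage, as at RGL1, was found for 29.9% of those genes. The uncovered part was at most 16 bp in any of the 5 bodies, and coverage of the 5 kb on either side ran from 97.3 to 99.7%. Each of the regions within 5 kb of a member lay wholly under input. The input stretch over RGL1 was 4381 bp long and reached beyond the gene at both ends, and 2.03% of the 118593 input stretches were at least as long. Read depth over RGL1 in the input cannot be read from intervals.

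The other genes of the gibberellin pathway were compared with the same background. Of 42 other gibberellin genes, 3 had a region on the body (7.14%, against 7.68% of all protein-coding genes), a share near the background. They were the receptor gene GID1B (14.6% covered, widest region 327 bp), GA2OX6, which encodes an enzyme that inactivates gibberellins (11.5%, 327 bp), and SEC, an O-GlcNAc transferase that modifies DELLA proteins (3.65%, 256 bp). GID1B is 0.169 Mb and GA2OX6 0.488 Mb from a chromosome end. No region lay on the body of the 14 biosynthesis genes, the 6 genes of DELLA partners, which include PIF3 and PIF4, or the 6 response genes, groups in which a share of 7.68% gives few or no genes. Regions within 5 kb were found at 7 of the 42 (16.7%, against 25.4% of all protein-coding genes), the additional ones being the biosynthesis genes GA2, GA3OX1 and GA3OX4 and the light-signalling factor PIF3, 2215 to 3545 bp from their nearest region. The largest share in this list, at GID1B, was thus between those of RGL3 and RGA.

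Among 27 other GRAS genes, 7 had a region on the body (25.9%, against the same 7.68%), and 8 had one within 1 kb (29.6%, against 12.2%). The gene table carries the list's name for 13 of the 27, and 2 of these 13 had a region on the body. The other 5 with a region were among the 14 loci that were placed in the family from general knowledge. The list was chosen with earlier results of these data known, so nothing is read from its share. HAM3, which maintains shoot meristems, was covered over 50.5% by 3 regions, the widest of 521 bp, and lies 0.058 Mb from the start of chromosome 4. The other 6 were covered over 8.24 to 17.8% by a single region of 215 to 287 bp each. They were SHORT-ROOT (SHR), SCL13, the HAM3 relative HAM4, and the loci AT2G37650, AT3G49950 and AT4G08250. SHR lies 0.892 Mb from a chromosome end. HAM3 and SHR were the 2 in the outer 1 Mb, where 21.8% of protein-coding genes had a region on the body. AT4G08250 lies in a gene-poor bin. Beside the 1698 bp at RGL1, the widest region on another GRAS gene was thus the 521 bp at HAM3, and HAM3 was the only one with a region of at least the median width on its body.

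**Figure D4:**
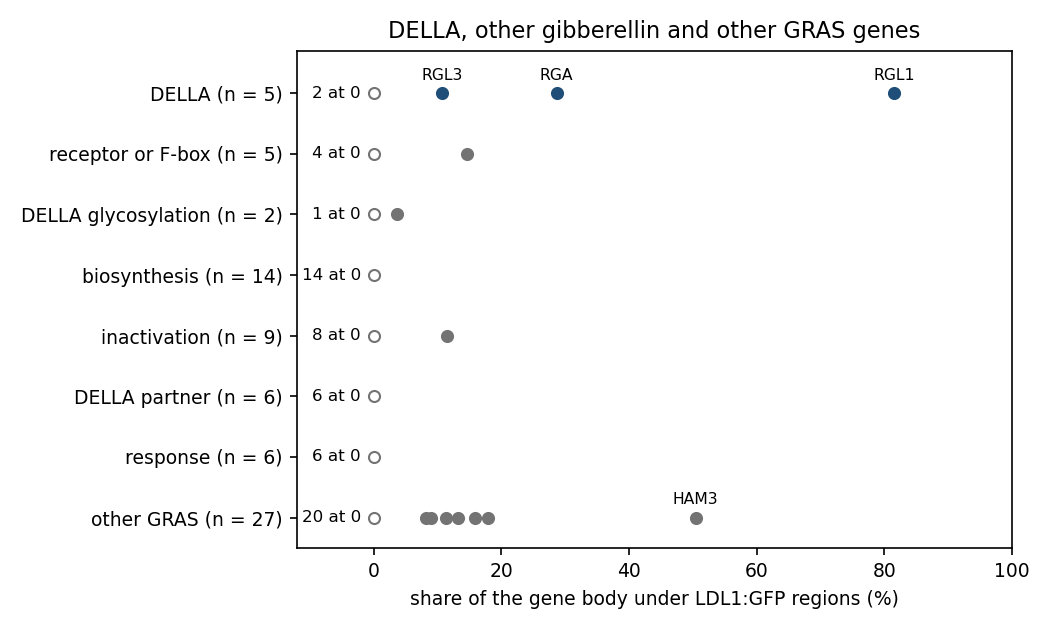
Share of the gene body under LDL1:GFP regions (%) for each gene of the DELLA family, of 6 roles in the gibberellin pathway and of the other GRAS genes. Each filled point is a gene, and the open point with a number gives the genes at 0. RGL1 (81.6%) and HAM3 (50.5%) lie highest, and the highest gibberellin gene outside the DELLA family is GID1B, at 14.6%.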

How the data were processed

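ChIP-seq with an anti-GFP antibody was done on LDL1pro::LDL1:GFP plants (2 ChIP libraries, 1 input), grouped by sample title. The deposited files hold start and end positions only, as 1 list for the ChIP group and 1 for the input. Per the submitters' processing notes, the tools were Bowtie and SICER and the build TAIR10. Not given in the sources used here are versions, settings, the region threshold, and how replicates and reads with several matches were handled.

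Positions were converted to 1-based coordinates. Genes came from a RefSeq table (TAIR10.1 assembly, used with TAIR10 coordinates because nuclear positions are shared). It gives no strand or exons, and sequence was not used here. A region counted as on a gene at an overlap of at least 1 bp. Chromosome ends were taken from the last input interval. The DELLA members and the lists of 42 gibberellin and 27 GRAS genes were chosen with earlier results of these data known. The gene table carries the list's name for 42 and 13 of them, and the other 14 loci, placed in the GRAS family from general knowledge, are named as the table has them. Named genes were the 5 members, their nearest protein-coding neighbours, genes under a region within 5 kb, list genes with a region, and the 5 genes most like RGL1. List members with no region on the body are named only to complete a count. The planned motif and protein comparisons were not run, since they need sequence. No test was made: there is 1 set of regions without replicates. The overlap code matched a brute-force count in 200 of 200 simulated windows. The software was Python 3.11.15 with pandas 2.3.3, numpy 2.4.6, scipy 1.17.1 and, for plots, matplotlib 3.10.9.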

Additional observations from a re-analysis of the deposited data

How the results depend on the processing

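Of the 5 DELLA genes, 3 had a region on the body when at least 200 bp had to be covered or 1 kb on either side was added, 4 with 5 kb, and 2 when regions narrower than the median were dropped, which left out RGL3. With those wider regions alone the share of RGA covered was 20.8%. The share of RGL1 covered came from 1 region, and was 41.6% of the window when 1 kb on either side was added, which holds no further region. The rank of that region was 18 outside gene-poor bins and 6 without the outer 1 Mb as well, the latter chosen after seeing the data. The background share of genes with a region on the body was 21.8% in the outer 1 Mb, 5.18% farther in and 8.12% for genes of 2000 to 2500 bp, also chosen after seeing the data. Other gibberellin genes with a region numbered 7 with 5 kb on either side, and 2 to 3 otherwise. Other GRAS genes numbered 1 without the regions narrower than the median, and 7 to 10 otherwise. For the 200 bp and median-width settings the share of all protein-coding genes is not given here. Nothing is therefore read from the counts under these settings. Stricter thresholds and leaving out a replicate could not be run, because the regions carry no score and are not separated by replicate. No paired analysis was possible because the result comes from no test.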
